A study of Mus musculus with 59 samples.

Results

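The binding of BCL6, PPARα and PPARδ was examined at 4 genes of ketone body metabolism: *Acat1* and *Bdh1*, which encode enzymes of the pathway, *Slc16a1*, which encodes its membrane transporter, and *Oxct1*, which encodes the enzyme that starts ketone body use outside the liver. A ChIP-seq peak was given to one of these genes if its center lay inside the gene, or if the nearest transcription start site (TSS) of a protein-coding RefSeq gene lay within 100 kb and belonged to it. By this rule 77 of 102931 peaks in 7 peak lists belonged to the 4 genes, out of 21774 protein-coding genes. *Bdh1* had 36 peaks, *Acat1* 22, *Slc16a1* 19 and *Oxct1* 0. Peaks of any list with centers within 200 bp of each other were joined into 1 site, which gave 23 of 40474 sites: 12 at *Bdh1*, 4 at *Acat1*, 7 at *Slc16a1* and 0 at *Oxct1*.

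The lists came from livers of male mice of the C57BL/6 strain, which were either fed ad libitum or fasted overnight. BCL6, PPARα and PPARδ were each mapped in wild-type mice in both feeding states, and BCL6 was also mapped in fed *Bcl6* fl/fl mice, which carry floxed *Bcl6* alleles without Cre and served as the controls of the hepatocyte-specific knockout. Each list was called over 3 livers relative to input chromatin, and the 7 lists hold the peaks of 21 ChIP samples among the 59 samples of the series. The lists give the position of each peak and nothing on its height, so a site was either called or not called in a group, no spread between livers could be given, and no test of a difference was possible. The reads per library are unknown from the lists, and a site that was not called may still have been bound below the threshold of that list. All intervals below are 95% Wilson intervals and cover counting error only.

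Ketone bodies are made in liver mitochondria from the acetyl-CoA that fatty acid oxidation yields, and their output rises when food is withheld. ACAT1 joins acetyl-CoA into acetoacetyl-CoA and can also run the reaction backwards, and BDH1 interconverts acetoacetate and β-hydroxybutyrate. The product leaves the hepatocyte through proton-linked transporters such as MCT1, the product of *Slc16a1*, and is taken up by tissues in which SCOT, the product of *Oxct1*, activates acetoacetate for use as fuel; hepatocytes hold little SCOT, which keeps the liver from burning what it makes. PPARα is a fatty acid-sensing nuclear receptor that binds DNA with RXR at direct repeats, PPARδ is a related receptor with a similar DNA preference, and BCL6 is a zinc finger repressor.

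The DNA under the sites is shown for those that carry the main contrasts. Windows of 200 bp around a site center were searched on both strands for the BCL6 element TTCCTAGAA with up to 1 mismatch, and for a DR1, a direct repeat of the half-site AGGTCA with 1 base between the copies, with up to 2 mismatches. The sequences are the plus strand of GRCm38, the assembly of mm10, and capitals mark every match. At *Bdh1*, the windows are a site called in all 7 lists, a site called for BCL6 in fed livers alone, a site called for BCL6 and PPARα in fasted livers alone, and a site called for PPARα in fasted livers alone. The fifth window is a distal *Slc16a1* site that was called in 6 lists.
Bdh1, 22.9 kb upstream, chr16:31399271-31399470: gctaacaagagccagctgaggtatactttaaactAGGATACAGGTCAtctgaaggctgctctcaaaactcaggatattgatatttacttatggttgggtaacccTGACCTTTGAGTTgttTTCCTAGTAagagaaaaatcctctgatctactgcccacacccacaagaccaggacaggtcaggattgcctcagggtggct
Bdh1, 20.2 kb upstream, chr16:31401977-31402176: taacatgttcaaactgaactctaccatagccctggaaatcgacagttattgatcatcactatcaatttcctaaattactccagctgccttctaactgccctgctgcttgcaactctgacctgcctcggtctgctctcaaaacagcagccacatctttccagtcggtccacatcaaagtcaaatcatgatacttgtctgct
Bdh1, 2.6 kb upstream, chr16:31419573-31419772: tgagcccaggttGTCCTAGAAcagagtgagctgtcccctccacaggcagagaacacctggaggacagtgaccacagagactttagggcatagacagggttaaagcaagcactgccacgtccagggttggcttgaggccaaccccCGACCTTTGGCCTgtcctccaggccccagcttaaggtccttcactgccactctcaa
Bdh1, 2.6 kb downstream of the TSS, chr16:31424835-31425034: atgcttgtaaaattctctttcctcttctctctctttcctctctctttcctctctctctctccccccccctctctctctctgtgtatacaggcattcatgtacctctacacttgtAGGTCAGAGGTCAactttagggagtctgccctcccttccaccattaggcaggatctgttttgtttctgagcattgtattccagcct
Slc16a1, 39.3 kb downstream of the TSS, chr3:104677912-104678111: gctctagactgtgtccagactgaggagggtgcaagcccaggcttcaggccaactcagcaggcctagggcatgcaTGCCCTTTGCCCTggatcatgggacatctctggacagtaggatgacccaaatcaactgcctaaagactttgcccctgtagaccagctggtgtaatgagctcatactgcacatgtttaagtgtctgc

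The window 22.9 kb upstream of *Bdh1* held 2 DR1 matches and 1 BCL6 match. The window 2.6 kb upstream held 1 of each. The intronic window 2.6 kb downstream of the *Bdh1* TSS held a DR1 with 0 mismatches, a separate run of pyrimidines and no BCL6 match. The window 20.2 kb upstream, which was called for BCL6 without either PPAR, held no match to either element, and the *Slc16a1* window held 1 DR1 match.

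The 250 bases before a TSS are shown for *Bdh1*, *Slc16a1* and *Oxct1*, since peaks were called there in 7, 1 and 0 lists. They are from RefSeq on GRCm38.p6 and read in the direction of the gene, and those of *Acat1* are not shown.
Bdh1 promoter, chr16:31422047-31422296: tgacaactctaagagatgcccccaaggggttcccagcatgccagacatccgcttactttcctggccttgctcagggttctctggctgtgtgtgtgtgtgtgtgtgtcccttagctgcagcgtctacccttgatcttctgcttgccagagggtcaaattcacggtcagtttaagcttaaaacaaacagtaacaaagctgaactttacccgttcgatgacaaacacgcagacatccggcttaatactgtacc
Slc16a1 promoter, chr3:104638414-104638663: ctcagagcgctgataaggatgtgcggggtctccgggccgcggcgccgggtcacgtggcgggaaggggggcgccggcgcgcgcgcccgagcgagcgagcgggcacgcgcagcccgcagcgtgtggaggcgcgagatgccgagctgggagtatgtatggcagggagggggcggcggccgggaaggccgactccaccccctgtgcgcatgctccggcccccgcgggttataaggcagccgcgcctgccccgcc
Oxct1 promoter, chr15:4026178-4026427: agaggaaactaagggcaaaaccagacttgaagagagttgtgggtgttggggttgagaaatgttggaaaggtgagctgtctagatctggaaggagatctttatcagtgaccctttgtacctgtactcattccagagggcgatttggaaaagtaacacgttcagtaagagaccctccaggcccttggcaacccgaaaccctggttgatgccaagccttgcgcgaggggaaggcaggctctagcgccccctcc

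None of these 3 stretches held a match to either element, and of 32851 RefSeq promoters of this length, 3.24% held a DR1 and 7.46% a BCL6 match. The *Slc16a1* promoter was rich in G and C, at 76.4% of its bases, compared with 49.6% at *Bdh1* and 52.0% at *Oxct1*.

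The 3 genes with peaks were called in every list, whereas *Oxct1* was called in none. Of all protein-coding genes, 28% had at least 1 BCL6 peak in fed wild-type livers, 20.6% in fasted livers and 30.9% in fed *Bcl6* fl/fl livers. For PPARα the shares were 34.3% in fed and 46% in fasted livers, and for PPARδ they were 18.6% and 8.69%. Any of the 7 lists held a peak for 52.5% of the genes. The fasted PPARδ list was thus the one in which the fewest genes had a peak, and *Bdh1*, *Acat1* and *Slc16a1* were all among them.

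**Figure D1:**
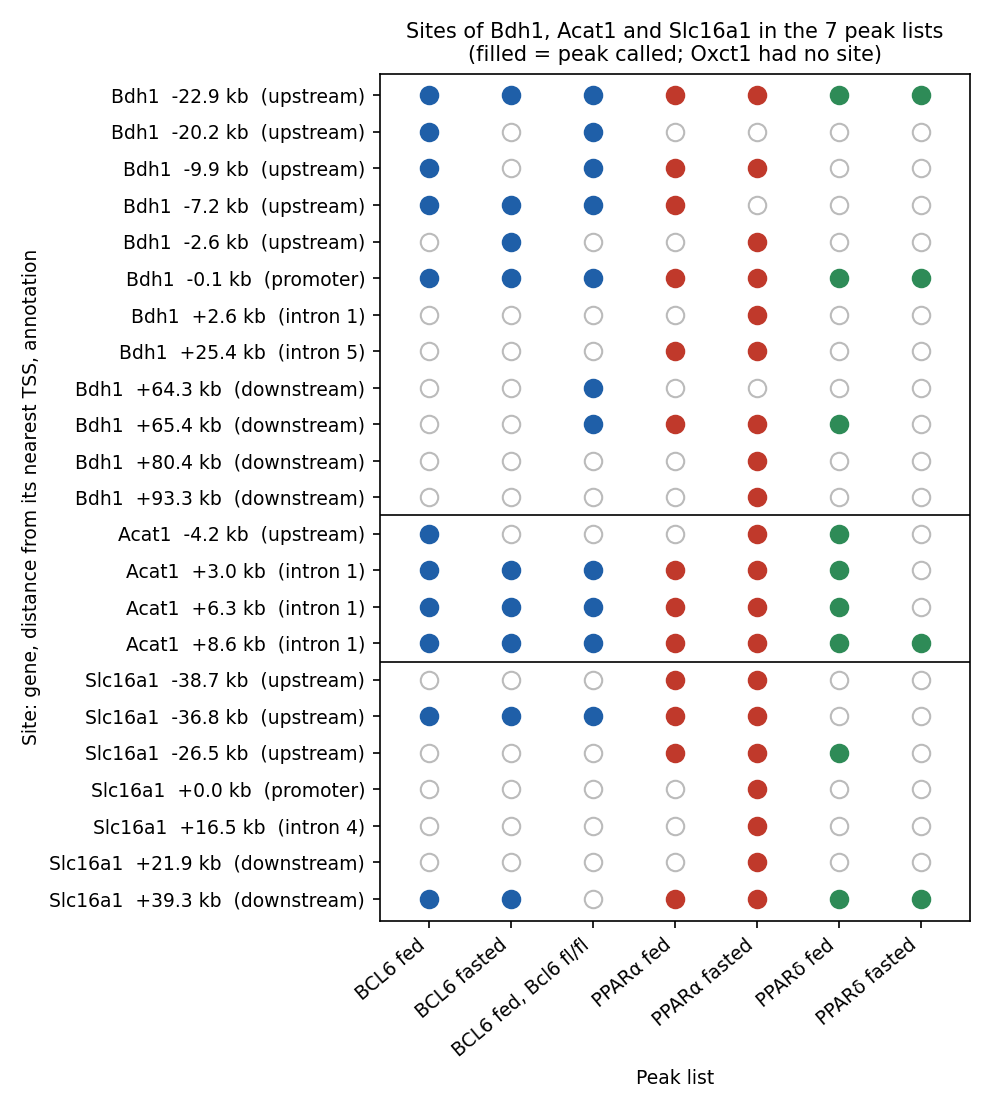
Calls at the 23 sites of *Bdh1*, *Acat1* and *Slc16a1*, with 1 row per site and 1 column per peak list. A filled circle is a called peak, row labels give the distance in kb from the nearest TSS of the gene (negative values are upstream), and columns are blue for BCL6, red for PPARα and green for PPARδ. Only 3 sites are filled in all 7 columns, and 7 are filled in a single column, 6 of them under fasted PPARα.

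*Acat1*, the mitochondrial thiolase, lies on the minus strand of chr9:53580522-53610350. It held 4 sites, and each was called for all 3 factors. A site 4.2 kb upstream of the TSS was called for BCL6 in fed wild-type livers, for PPARα in fasted livers and for PPARδ in fed livers. The other 3 sites lay in intron 1, at 3.0, 6.3 and 8.6 kb from the TSS. They were called for BCL6 in all 3 lists and for PPARα in both feeding states. The intronic sites thus kept BCL6 and PPARα calls in fed and fasted livers alike, and differed in PPARδ. PPARδ was called at all 3 in fed livers and only at the site 8.6 kb from the TSS in fasted livers. The upstream site was the single *Acat1* site whose BCL6 and PPARα calls differed between the fed and fasted wild-type lists.

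By list, *Acat1* had 4 BCL6 peaks in fed and 3 in fasted wild-type livers, and 3 in fed *Bcl6* fl/fl livers. It had 3 PPARα peaks in fed and 4 in fasted livers. Its PPARδ peaks went from 4 in fed to 1 in fasted livers. The fed PPARδ count was higher than that of 98.3% of protein-coding genes. None of its peaks was in the promoter, taken as 1000 bp upstream to 100 bp downstream of a TSS of the gene.

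*Bdh1*, the β-hydroxybutyrate dehydrogenase, lies on the plus strand of chr16:31422297-31458901 and has a second TSS in RefSeq at 31428753. Its 12 sites were more than those of 97.9% of protein-coding genes. They fell into 5 upstream sites, 1 promoter site, 2 intronic sites and 4 sites beyond the 3′ end. The upstream and promoter sites held 14 of its 16 BCL6 peaks, and the intronic and downstream sites were called mainly for PPARα.

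The promoter site, 86 bp upstream of the first TSS, and the site 22.9 kb upstream were called in all 7 lists. The latter covers the region that the study amplified by ChIP-qPCR for *Bdh1*: both primers matched the genome once, at chr16:31399316-31399378, and the 7 peak centers lay 12 to 40 bp from the center of this 63-bp stretch. Between these fixed points, the calls at 4 further upstream sites differed between the fed and fasted lists. The site 20.2 kb upstream was called for BCL6 in both fed lists and for no other factor. The site 9.9 kb upstream was called for BCL6 in both fed lists and for PPARα in both feeding states. The site 7.2 kb upstream was called for BCL6 in all 3 lists and for PPARα in fed livers alone, which made it the only one of the 23 sites where PPARα was called in fed but not in fasted livers. The site 2.6 kb upstream was called for BCL6 and PPARα in fasted livers and for neither in fed livers, and it was the only fasted-only BCL6 site of the 4 genes.

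Inside *Bdh1*, intron 1 held the exact DR1 site, which was called for PPARα in fasted livers alone. A site in intron 5, 25.4 kb from the nearest TSS, was called for PPARα in both states. Beyond the 3′ end, the sites 80.4 and 93.3 kb from the nearest TSS were called for PPARα in fasted livers alone, and the sites at 64.3 and 65.4 kb were called for BCL6 in *Bcl6* fl/fl livers but not in wild-type livers. The site at 65.4 kb was also called for PPARα in both states and for PPARδ in fed livers. These distal sites are tied to *Bdh1* by distance alone, and 9 of the 36 *Bdh1* peaks, those of intron 5 and beyond the 3′ end, were closer to a non-coding TSS: 5 to Gm52238, 2 to Gm46560 and 2 to Gm15743, all long non-coding RNAs. The site at 65.4 kb lay 0.2 to 0.3 kb from the TSS of Gm52238, and the site at 80.4 kb lay 0.2 kb from that of Gm46560.

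By list, *Bdh1* had 5 BCL6 peaks in fed and 4 in fasted wild-type livers and 7 in fed *Bcl6* fl/fl livers. PPARα had 6 in fed and 9 in fasted livers, and PPARδ had 3 and 2. All 5 PPARδ peaks fell on sites that were also called for PPARα and, in at least 1 list, for BCL6.

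*Slc16a1*, the monocarboxylate transporter, lies on the plus strand of chr3:104638664-104658462. Its 7 sites were all called for PPARα in fasted livers, and 2 were called for BCL6. The BCL6 sites lay 36.8 kb upstream and 39.3 kb downstream of the TSS. The upstream one was called for BCL6 in all 3 lists and for PPARα in both states, and not for PPARδ. The downstream one was called in every list except BCL6 in fed *Bcl6* fl/fl livers, and it was the only *Slc16a1* site called for all 3 factors.

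The promoter site of *Slc16a1*, with its center 1 bp from the TSS, was called for PPARα in fasted livers alone. Its 200-bp window held 74.0% G and C, the highest of the 23 sites, which had a median of 47.0%. Sites in intron 4 and 21.9 kb from the TSS were likewise called for PPARα in fasted livers alone. The sites 38.7 and 26.5 kb upstream were called for PPARα in both states, the second also for PPARδ in fed livers. *Slc16a1* thus had 4 PPARα peaks in fed and 7 in fasted livers, compared with 2 BCL6 peaks in each state in wild-type livers, 1 in fed *Bcl6* fl/fl livers, and 2 fed and 1 fasted PPARδ peaks. The link of these sites to the gene is by distance: 17 of the 19 peaks had a closer non-coding TSS, which was the small nuclear RNA gene Gm26091 for 10 upstream peaks and the long non-coding RNA gene Gm34548 for 7 downstream peaks. The 2 remaining peaks were those in the promoter and in intron 4.

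*Oxct1* lies on the plus strand of chr15:4026428-4155344. It was taken as the extrahepatic comparison, and at 128917 bp it is the longest of the 4 genes. No peak center of any list fell in a stretch of 497.6 kb that contains the whole gene. The nearest peaks on the upstream side were PPARα peaks of fed and fasted livers, 30.6 and 30.7 kb from the gene, at the TSS of AW549877. On the downstream side the nearest peak was a PPARδ peak of fasted livers 338.1 kb beyond the 3′ end, closest to Plcxd3. A gene without a site is not unusual: of 3840 protein-coding genes with at least as much assigned genome as *Oxct1*, 1232 (32.1%) had none.

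**Figure D2:**
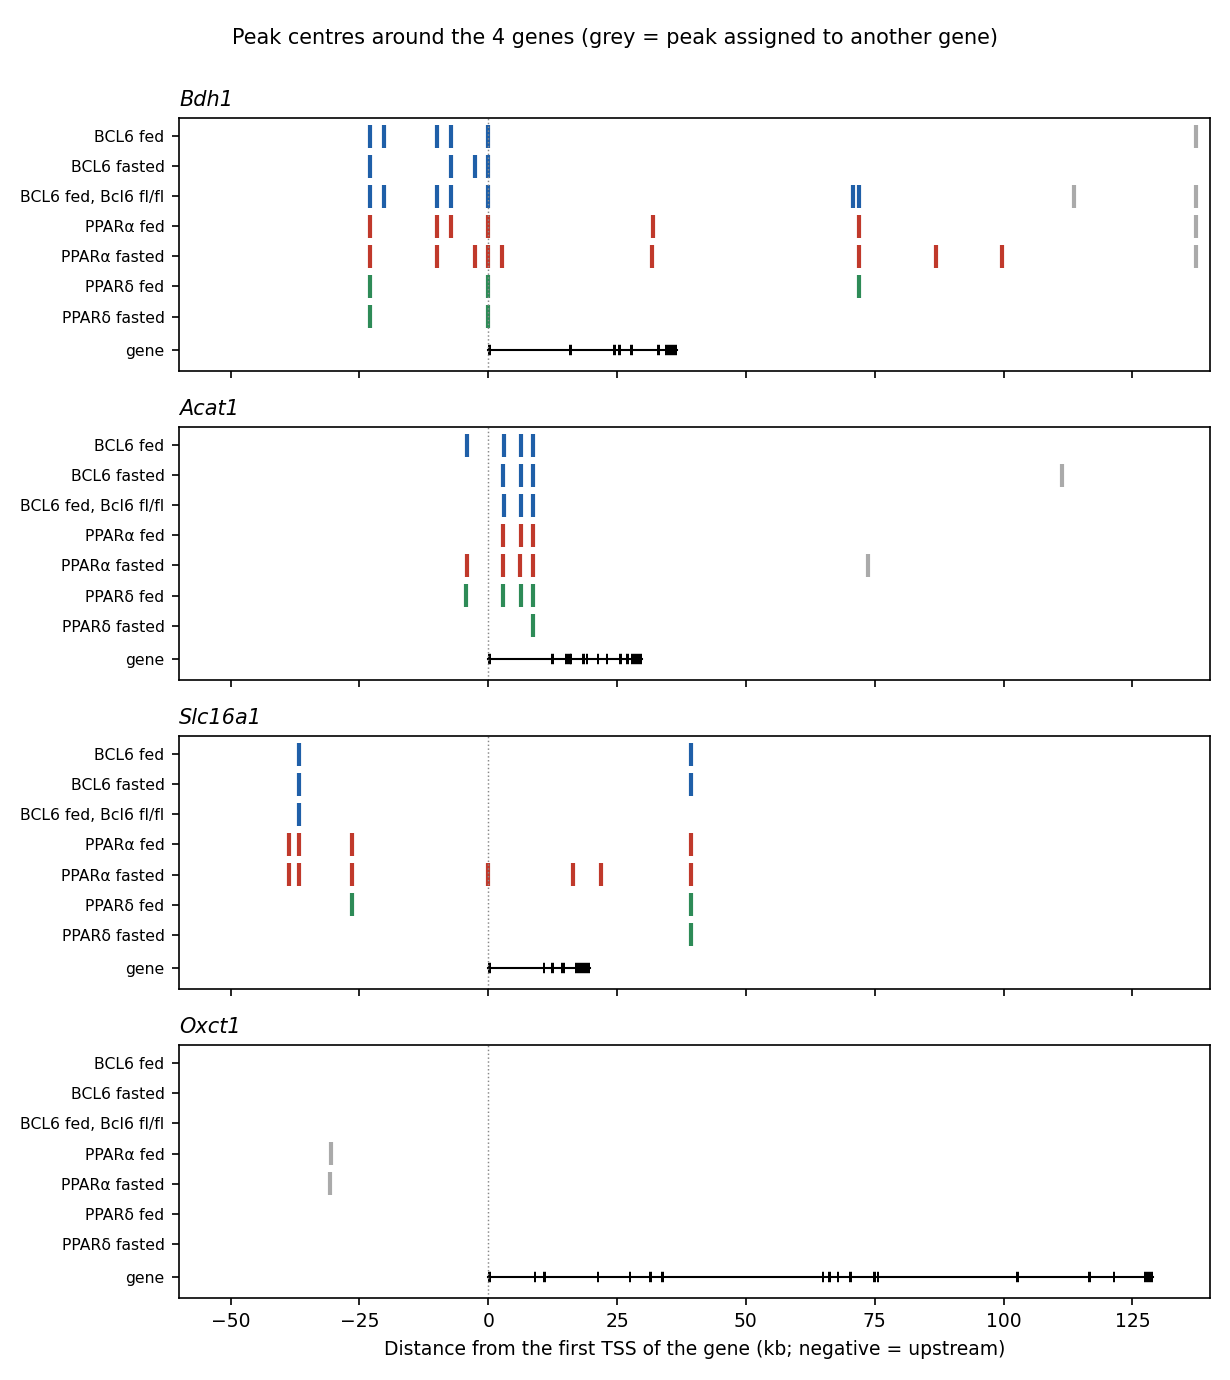
Peak centers of the 7 lists around *Bdh1*, *Acat1*, *Slc16a1* and *Oxct1*, against the distance in kb from the first TSS in the direction of transcription. Blue, red and green ticks are BCL6, PPARα and PPARδ peaks given to the gene, gray ticks are peaks given to another gene, and black boxes are exons. The *Acat1* peaks lie from -4.2 to 8.7 kb, those of *Slc16a1* from -38.8 to 39.4 kb, and the *Oxct1* panel holds only the 2 peaks at AW549877.

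Long genes and wide gaps between genes collect more peaks, so the sites were also counted per Mb of genome from which a gene could have received a peak. *Bdh1* had 77.5 sites per Mb over 154.9 kb, *Acat1* 68.7 over 58.2 kb, *Slc16a1* 53.3 over 131.4 kb and *Oxct1* 0 over 144.3 kb. The median gene had 6.11 sites per Mb, and all genes together 20.2. *Bdh1*, *Acat1* and *Slc16a1* were denser than 88.1%, 86.0% and 81.4% of protein-coding genes. On this scale *Acat1* stood next to *Bdh1*, with 4 sites against 12.

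**Figure D3:**
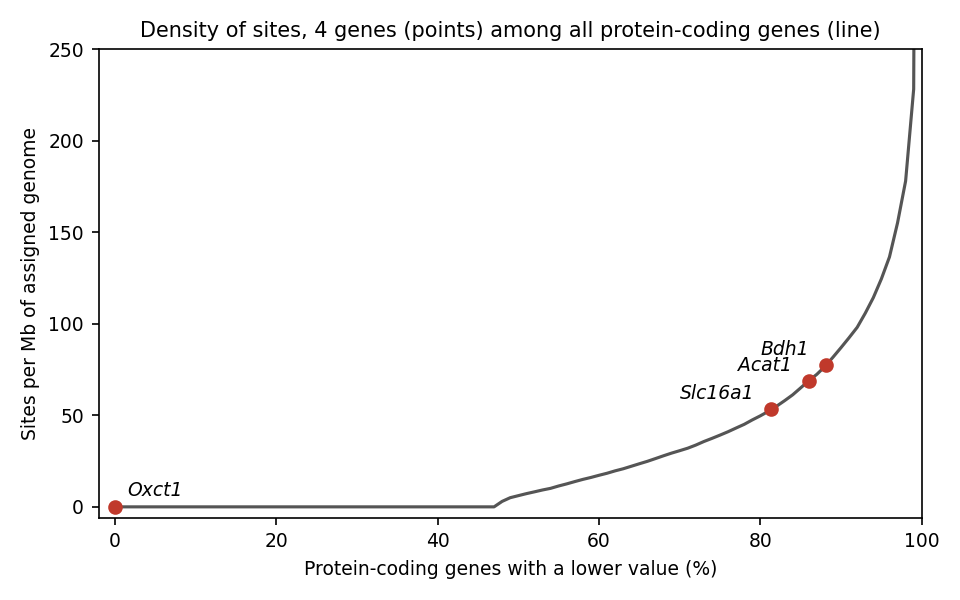
Sites per Mb of assigned genome (vertical axis) against the percentage of protein-coding genes with a lower value (horizontal axis). The gray line is the distribution over 21774 protein-coding genes, cut at the top of the axis, and the red points are the 4 ketone body genes. *Bdh1*, *Acat1* and *Slc16a1* sit at 77.5, 68.7 and 53.3 sites per Mb, and *Oxct1* sits at 0 with every other gene that had no site.

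To set the calls side by side by feeding state, wild-type fed and fasted lists of each factor were compared. The 4 genes had 11 BCL6 peaks in fed and 9 in fasted livers, a change of -18.2%, compared with -38.5% over the whole lists. PPARα went from 13 to 20 peaks, a change of 53.8% compared with 35.8%. PPARδ went from 9 to 4, a change of -55.6% compared with -67.3%. The direction at the ketone body genes was that of the whole list for each factor, and with so few peaks the sizes cannot be told apart from those of the lists.

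Of the 12 BCL6 sites in wild-type livers, 3 were called in fed livers alone (25%, 8.89% to 53.2%), 8 in both states (66.7%, 39.1% to 86.2%) and 1 in fasted livers alone. Among all BCL6 sites the shares were 45.3% fed only, 43.7% both and 11% fasted only. All 3 shares over all sites lay within the intervals for the 4 genes. The 3 fed-only sites were those 20.2 and 9.9 kb upstream of *Bdh1* and 4.2 kb upstream of *Acat1*. Both BCL6 sites of *Slc16a1* were called in both states.

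Of 21 PPARα sites, 1 was called in fed livers alone (4.76%, 0.846% to 22.7%), 12 in both states (57.1%, 36.5% to 75.5%) and 8 in fasted livers alone (38.1%, 20.8% to 59.1%). Over all PPARα sites these states held 12.8%, 51.3% and 35.8%, again within the intervals. The fasted-only sites were 4 at *Bdh1*, 1 at *Acat1* and 3 at *Slc16a1*. Of these 8, 6 were called for no other factor, close to the 74.8% of all fasted-only PPARα sites, and they were 3 *Bdh1* and 3 *Slc16a1* sites. The other two, 2.6 kb upstream of *Bdh1* and 4.2 kb upstream of *Acat1*, were also called for BCL6.

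Of 9 PPARδ sites, 5 were called in fed livers alone (55.6%, 26.7% to 81.1%), 4 in both states (44.4%, 18.9% to 73.3%) and 0 in fasted livers alone (an upper bound of 29.9%). Over all PPARδ sites 70.7% were fed only, 18.7% both and 10.6% fasted only. The background shares of 70.7% and 10.6% lay within their intervals, and that of 18.7% lay just below the lower bound of 18.9%. Neighboring sites of 1 gene are not independent, and the genes were chosen with earlier results known. No difference is therefore read from this margin. The 4 sites called in both states were 2 at *Bdh1* and 1 each at *Acat1* and *Slc16a1*. All 4 were also called for BCL6 and PPARα in both states, as were 44.2% of all sites with PPARδ in both states.

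**Figure D4:**
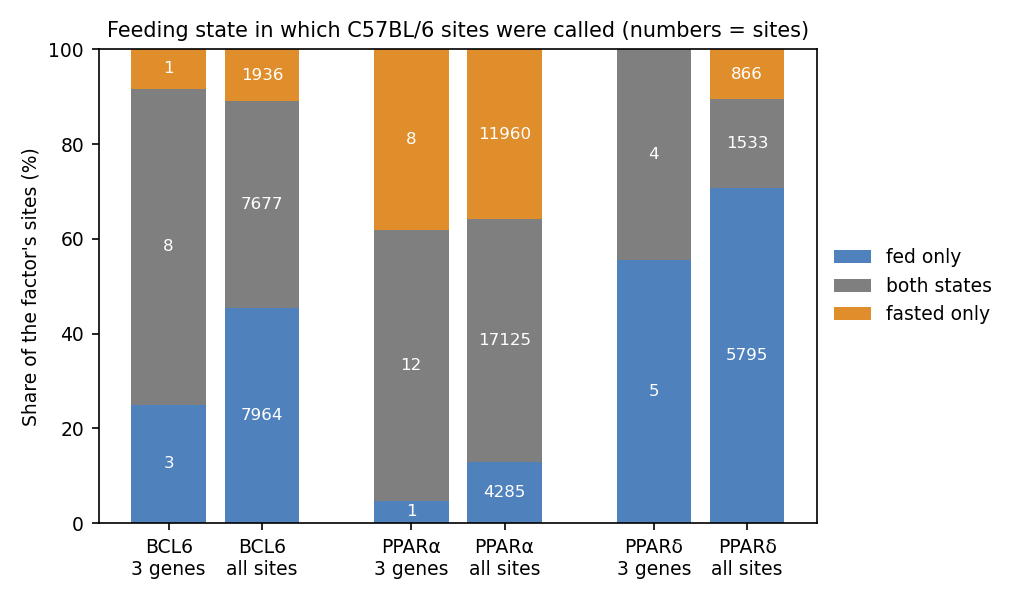
Share of each factor's wild-type sites that were called in fed livers alone (blue), in both feeding states (gray) and in fasted livers alone (orange), for the 3 ketone body genes with sites and for all sites. The vertical axis is the percentage of sites and the numbers in the bars are sites. At the 3 genes, 8 of 12 BCL6 sites, 12 of 21 PPARα sites and 4 of 9 PPARδ sites were called in both states.

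A full exchange of BCL6 in fed livers for PPARα in fasted livers at the same site was seen once. Of 11 sites of the 4 genes that were called for BCL6 and PPARα in wild-type livers, only the *Acat1* site 4.2 kb upstream was fed-only for BCL6 and fasted-only for PPARα. Over all such sites the share was 5.84%. At the other 10 sites at least 1 of the factors was called in both states or both were called in fasted livers alone, and a change in the amount of binding at them cannot be read from calls.

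The fed *Bcl6* fl/fl livers gave a second BCL6 list under the same feeding state. Of the 11 BCL6 sites of the 4 genes in fed wild-type livers, 9 were also called in fed *Bcl6* fl/fl livers, compared with 69.6% of all fed wild-type BCL6 sites. In the other direction 9 of 11 sites were shared, compared with 62.3%. The sites missing from the *Bcl6* fl/fl list were 4.2 kb upstream of *Acat1* and 39.3 kb downstream of the *Slc16a1* TSS, and those gained were the *Bdh1* sites at 64.3 and 65.4 kb. The only full exchange at these genes therefore rests on a fed BCL6 call that was not made in the second fed list. The share of fed BCL6 sites that failed to recur between these lists, in livers of the same feeding state, is the closest available measure of how far calls vary, although genotype differed too.

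BCL6 and PPARα were called together at 12 of the 23 sites (52.2%, 33.0% to 70.8%), compared with 42.5% of all sites. Of 14 sites with BCL6 in any list, 12 had PPARα, compared with 74.1%. Of 21 sites with PPARα, 12 had BCL6, compared with 51.5%. These shares were near their backgrounds. By gene, BCL6 and PPARα met at 4 of 4 *Acat1* sites, 6 of 12 *Bdh1* sites and 2 of 7 *Slc16a1* sites, and a difference between the genes was not tested. PPARα without BCL6 was called at 4 *Bdh1* and 5 *Slc16a1* sites, and BCL6 without PPARα at 2 *Bdh1* sites.

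All 3 factors were called at 8 of the 23 sites (34.8%, 18.8% to 55.1%), compared with 13.7% of all sites, and 3 sites (13.0%, 4.54% to 32.1%) were in all 7 lists, compared with 1.6%. These background shares lay below the intervals for the 4 genes. The 8 sites were 4 at *Acat1*, 3 at *Bdh1* and 1 at *Slc16a1*, and the 3 sites in all lists were the *Bdh1* promoter, the *Bdh1* site 22.9 kb upstream and the *Acat1* site 8.6 kb into intron 1. All 9 PPARδ sites had PPARα, compared with 85.1% of PPARδ sites. Sites in a single list made up 7 of 23, compared with 39.6%. Neighboring sites of 1 gene are not independent of each other, which the intervals do not take into account. The genes were also chosen with earlier results of these data known. No enrichment is therefore read from these shares, and none was tested.

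The distance between BCL6 and PPARα centers within a site is limited by the joining of centers within 200 bp, here and genome-wide. In fed livers the distance was 8 to 60 bp at 9 sites, with a median of 18 bp, compared with 27 bp over 10991 sites genome-wide. In fasted livers it was 3 to 65 bp at 8 sites, with a median of 47 bp, compared with 29 bp over 7777 sites. The 3 *Acat1* intron sites had distances of 28, 9 and 8 bp in fed livers and 3, 42 and 40 bp in fasted livers. The order of the sites thus differed between the lists. The centers carry no spread, and a change with feeding state was not tested.

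Most sites were outside promoters. Of the 23 sites, 2 were in a promoter, compared with 13.4% of all sites, 6 were intronic, 9 were upstream and 6 were beyond the 3′ end. A DR1 match was found at 8 sites (34.8%, 18.8% to 55.1%), compared with 13.1% of all sites. The count depended on the search. With 1 mismatch fewer, or in windows of 50 bp, 1 site held a match, compared with 3.06% and 4.21% of all sites. The share at the 4 genes (4.35%, 0.772% to 21.0%) was then near the background. It was not the same site. With 1 mismatch fewer it was the intron 1 site of *Bdh1*, and in windows of 50 bp the *Bdh1* site 22.9 kb upstream. The 8 sites were 3 of *Bdh1*, 2 of *Acat1* and 3 of *Slc16a1*, all called for PPARα. The exact DR1 in intron 1 of *Bdh1* was the only one among the 23 sites, compared with 0.326% of all sites. A BCL6 match was found at 2 sites, both at *Bdh1* (22.9 and 2.6 kb upstream), compared with 10.9% of all sites, and at 0 sites with 1 mismatch fewer or in windows of 50 bp, compared with 1.23% and 3.25%. The other 12 sites called for BCL6 held no BCL6 match within 200 bp of sequence. Among sites called for BCL6, 14.3% held a match at these genes, close to 15.1% of all BCL6 sites. The matches describe letters in these windows and say nothing of which protein was bound through them.

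Genes with the closest pattern of peak counts over the 7 lists were sought among the other protein-coding genes, by the sum of absolute differences in count. No gene had the counts of *Bdh1*, *Acat1* or *Slc16a1*. Within a difference of 4 peaks, 10 genes were like *Bdh1*, and within 3 peaks 13 were like *Acat1* and 9 like *Slc16a1*. *Oxct1* shared its counts of 0 with 10324 genes.

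For context, 13 other genes of ketone body handling were examined by the same rule. In the order of fed, fasted and *Bcl6* fl/fl livers, 4, 3 and 5 of them had a BCL6 peak. For PPARα 5 had a peak in fed and 4 in fasted livers, and for PPARδ 3 and 2. In all, 7 of the 13 had a site, close to the 52.5% of all protein-coding genes. The shares of all genes for each list are given above. The list of related genes is incomplete, so nothing further was read from these counts. Slc16a7, which encodes the transporter MCT2, had the most, with 13 sites, 8 fed and 7 fasted BCL6 peaks in wild-type livers, and 11 fed and 9 fasted PPARα peaks. Acss3, an acyl-CoA synthetase, had 8 sites and no PPARδ peak. It had 4 fed and 2 fasted BCL6 peaks in wild-type livers and 3 in fed *Bcl6* fl/fl livers. Its PPARα peaks were 4 in fed and 6 in fasted livers. Aacs, which activates acetoacetate in the cytosol, had 7 sites, with 1 BCL6 peak in fed wild-type livers, 0 in fasted livers and 4 in fed *Bcl6* fl/fl livers, 6 fed and 7 fasted PPARα peaks, and 3 fed PPARδ peaks. Bsg, which escorts MCT1 to the membrane, had 2 sites, Hmgcll1 had 2, and Bdh2 and Slc16a6 had 1 each. Acat2, Oxct2a, Oxct2b, Slc16a3, Slc16a8 and Emb had none. *Oxct1* and its testis paralogs Oxct2a and Oxct2b were thus alike in having no site, but only 52.5% of all protein-coding genes had one.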

How the data were processed

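ChIP-seq was run on livers of 3 mice per group, and 7 peak lists were used. The authors aligned single-end reads with Bowtie to the mm10 genome, discarded reads that map to several places, and limited reads that start at the same position to 1. In HOMER, the authors first found peaks on the pooled replicates relative to input, and then let DESeq2, which the authors ran on each library's tags, retain those with 2-fold enrichment at a false discovery rate of 0.05. The deposited lists hold chromosome, start and end in bp, without scores or counts, so depth and peak height are unknown, and repeated sequence to which reads do not map uniquely cannot carry a peak. Replicates are separate animals, but no value per animal can be recovered.

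Peak centers were assigned to genes of NCBI RefSeq on GRCm38.p6 (0 unassigned sample columns). Centers within 200 bp were joined by single linkage over all 7 lists. The assigned genome of a gene was its span plus positions nearest to its TSS within 100 kb. Genes were named by rule: the 4 genes, a list of related genes, and genes that hold a closer TSS; AW549877 and Plcxd3, next to *Oxct1*, were named after their values were seen. The genes and lists were chosen with earlier results of these data known, and 2 genes of the related list were taken out after their counts had been seen and are not reported here. No test was made. Alternatives covered the joining distance, the reach and set of TSSs, the promoter window and the sequence search. Functions were tested on simulated data. Knockout and H3K27ac samples were not used here, and input entered only through the peak calling of the authors. The work used Python 3.11.15, NumPy 2.4.6, pandas 2.3.3, pysam 0.24.0 and Matplotlib 3.10.9.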

Additional observations from a re-analysis of the deposited data

How the results depend on the processing

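Of 130 values recomputed under other settings, 113 changed by less than 1.5 times or less than their counting interval and 17 moved further. Counting only peaks inside the genes left 3 peaks in each of the fed, fasted and *Bcl6* fl/fl BCL6 lists, 4 and 7 in the fed and fasted PPARα lists, and 3 and 1 in the fed and fasted PPARδ lists, with 3 peaks for *Bdh1* and 2 for *Slc16a1*. With non-coding TSSs included, the PPARα peaks became 8 fed and 12 fasted, and *Slc16a1* kept 2 peaks. A promoter from 5000 bp upstream to 1000 bp downstream held 5 sites. With 1 mismatch fewer, 0 sites held a BCL6 match and 1 a DR1 match. Windows of 50 bp also gave 0 and 1, with the DR1 match at a different site. The joining distance, the reach of 50 kb or 1 Mb and the curated transcripts moved no value past these limits.

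The lists pool their replicates, so leaving out a replicate was not possible, and a stricter threshold was not run because the lists hold no score. No paired analysis was possible because the lists carry no value per replicate. The depth behind each list limits every absent call, and a difference in called sites between feeding states cannot be told apart from a difference in the depth or enrichment of the libraries.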
